A study of Mus musculus with 36 samples.

Results

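The response of mouse cortical astrocyte cultures to 12 h of dexamethasone was measured on 4 of the series' 36 Illumina BeadChip arrays, chosen by their treatment label. They are 2 arrays of cultures given about 100 nM dexamethasone, a synthetic glucocorticoid, for 12 h and 2 arrays of cultures given vehicle for 12 h. All cultures came from C57B/6 pups of postnatal days 0 to 2, prepared from cortex or hippocampus according to the growth protocol, and were grown to about confluence in medium with fetal bovine serum. The composition of the vehicle is not stated, and neither is whether the 2 arrays of a group are separate cultures, so each p-value reflects no more than the variation among these arrays, which may be technical. The 4 arrays of 6 h and the 4 arrays of 18 h, with the same treatments, are used as neighbours in time.

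Glucocorticoids enter the cell and bind the glucocorticoid receptor, a nuclear receptor that chaperones hold ready in the cytoplasm. The bound receptor moves to the nucleus, where it raises transcription at palindromic DNA elements and lowers transcription driven by factors such as NF-kappaB and AP-1. Astrocytes carry the receptor and are among the brain cells in which it sets metabolic, clock and connexin genes, and glucocorticoids also restrain division and inflammatory genes in many cell types.

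Levels are background-corrected log2 intensities of 1 probe per listed gene symbol, for 20637 symbols, which are counted as genes here. Of these, 4654 matched no single current symbol. A gene listed under more than 1 symbol, such as Hif3a and Ipas, is counted under each. Differences are dexamethasone minus vehicle on the log2 scale with the standard error (SE). A gene is called at a limma adjusted p under 0.05 in a fit of all 36 arrays. A call is said to hold when the gene is also called in the same direction in a fit without vehicle replicate 1 and in a fit without vehicle replicate 2, which set the dexamethasone arrays against each vehicle array alone. Pairs of levels are given as replicate 1 and replicate 2.

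The 2 vehicle arrays of 12 h differed from each other more than any other pair of replicates in the series. Between them 956 genes were past 2-fold higher in replicate 1 (4.63% of genes) and 1029 were past 2-fold lower (4.99%), together 9.62%. The corresponding share was 9.06% between the 2 dexamethasone arrays of 12 h and 0.0145% to 7.25% between the other replicate pairs. The median within-group standard deviation of a gene was 0.291 at 12 h and 0.24 over the other 7 times.

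Genes of microglia, the immune cells of the brain, and of the oligodendrocyte lineage stood high on vehicle replicate 1. All 21 microglia and macrophage markers tested were higher in vehicle replicate 1 than in replicate 2, with a median difference of 2.19. Their mean level was 8.06 and 7.63 on the dexamethasone arrays, against 9.95 and 7.80 on the vehicle arrays. The 12 vehicle arrays of 2, 4, 6, 18 and 24 h lay between 7.63 and 9.00, and the vehicle arrays of 0.25 h and 1 h between 9.83 and 10.36. Only vehicle replicate 1 thus stood apart among the 12 h arrays, at the level of the earliest vehicle arrays. Its label was taken as given and whether it is right was not tested, and every comparison that uses vehicle replicate 1 rests on it. The 15 oligodendrocyte lineage markers averaged 7.54 and 7.23 with dexamethasone, against 8.55 and 7.17 with vehicle, and the 17 immediate early genes averaged 8.20 and 8.02 against 9.40 and 7.98. For immediate early genes the vehicle replicate 1 mean lay between those of the vehicle arrays of 1 h (9.54 and 9.32). It lay above those of the vehicle arrays of 0.25 h (8.48 and 8.21).

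**Figure D1:**
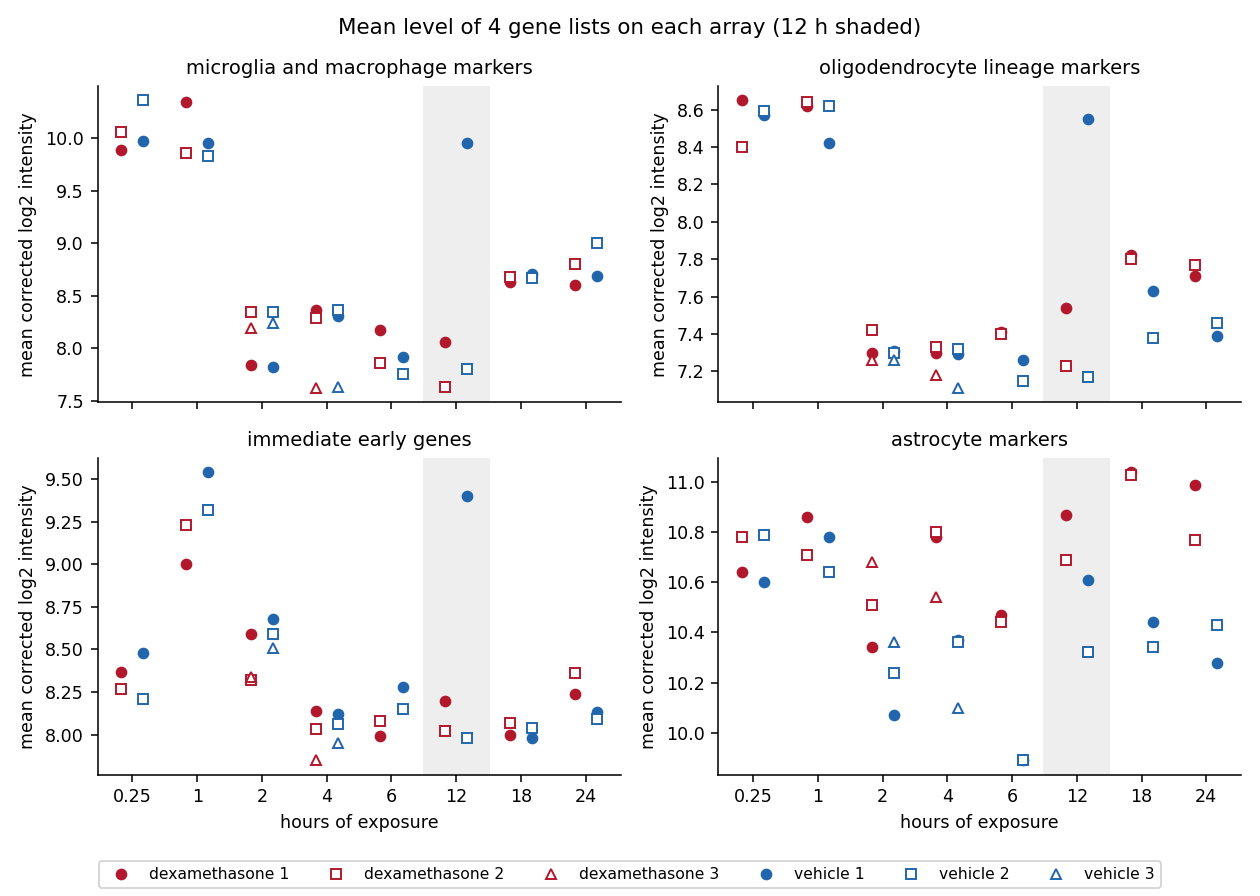
Mean corrected log2 intensity of 4 gene lists on each of the 36 arrays, by hours of exposure, with dexamethasone in red to the left of vehicle in blue and the replicate number given by the symbol. At 12 h (shaded) vehicle replicate 1 lies at 9.95 for microglia markers, 8.55 for oligodendrocyte markers and 9.40 for immediate early genes, above the other 3 arrays of that time.

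The single genes furthest apart between the vehicle arrays were of several kinds. Those highest in replicate 1 over replicate 2 were the metallothionein Mt3 (vehicle levels 14.30 and 9.80), the myelin-associated Bcas1 (10.14 and 6.25), the oligodendrocyte transcription factor Sox10 (10.01 and 6.32), the complement subunit C1qc (11.11 and 7.54) and the immediate early factor Egr2 (10.51 and 6.94). Lowest in replicate 1 were the histone gene H2ac15 (8.0 and 12.27), the dynactin subunit Dctn1 (7.80 and 11.77), the histone gene H2ac12 (8.01 and 11.93), the ribosomal RNA Rn18s (11.33 and 15.24) and the elongation factor Eef2 (7.34 and 11.15). These 5 were split in the same way between the dexamethasone arrays, at 8.30 and 11.98 for H2ac15 and 12.91 and 15.37 for Rn18s, for example. H2A histone genes are nearly identical in sequence, so their probes may share signal. The astrocyte filament gene Gfap likewise stood at 14.22 and 12.02 with dexamethasone and at 14.36 and 11.60 with vehicle, a split by replicate number in both treatments. None of the 10 genes other than Sox10 was called between treatments.

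Astrocyte markers were present, with 22 of 23 tested above background on all 4 arrays, Gfap, Aqp4, Slc1a3 and Sox9 among them. Markers of other cells were detected as well. Above background on all 4 arrays lay 19 of 21 microglia markers, 7 of 15 oligodendrocyte lineage markers, 6 of 9 neuron markers, 8 of 8 fibroblast and pericyte markers, 3 of 8 endothelial markers and 6 of 6 ependymal markers. In RNA from a whole culture, fewer cells of a type and less RNA per cell cannot be told apart.

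With both vehicle arrays, 1171 genes were called at 12 h, 455 higher (2.2% of genes) and 716 lower (3.47%). Against vehicle replicate 2 alone 499 were higher (2.42%) and 614 lower (2.98%), and against vehicle replicate 1 alone 441 were higher (2.14%) and 908 lower (4.4%). The call held for 215 of the 455 higher genes (47.3%, and 1.04% of all genes) and for 206 of the 716 lower genes (28.8%, and 0.998% of all genes). Of the other lower genes, 277 were lost only without vehicle replicate 1, 153 only without replicate 2 and 80 in both fits. The corresponding losses among higher genes were 92, 105 and 43.

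A call against 1 vehicle array needs a larger difference, so holding genes were bound to differ more than the rest of the calls, and the medians are a description. The median was 1.60 for the 215 holding rises and 0.92 for the 240 that did not hold, and -1.32 for the 206 holding falls and -0.95 for the 510 that did not. The 4 arrays did not overlap between treatments for 454 of the 455 higher and 712 of the 716 lower genes. Over all genes 13.7% had both dexamethasone arrays above both vehicle arrays and 18.9% had both below. All 215 holding rises and all 206 holding falls were apart in this way. Where non-overlap is given below for a holding gene, it is no separate support. With each dexamethasone array also left out in turn, 188 rises and 153 falls were called in all 5 fits. Without dexamethasone replicate 2 the total of genes called was 596 in place of 1171, and 263 of them were lower.

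These counts rest on a spread estimated over all times. A fit of the 12 h arrays alone, with 2 residual degrees of freedom, called 23 genes higher and 0 lower (1304 at an unadjusted p under 0.05), all 23 among the holding rises. A fit with array weights, 0.439 for each 12 h dexamethasone array and 0.38 for each 12 h vehicle array, called 293 genes, 159 of them holding rises and 110 holding falls.

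As a further look at the vehicle side, the 12 h dexamethasone arrays were set against the 4 vehicle arrays of 6 h and 18 h, which share no array with the 12 h vehicle group. That called 657 genes higher (3.18%) and 700 lower (3.39%). Called in the same direction there were 209 of the 215 holding rises (97.2%) and 179 of the 206 holding falls (86.9%), against 161 of 240 rises (67.1%) and 239 of 510 falls (46.9%) that did not hold. The dexamethasone arrays are the same in both comparisons, so the 2 results are not independent. Holding genes were bound to differ more, as given above, so their higher shares are a description and no separate support. Treatment and hours of exposure also differ together in this comparison and cannot be told apart.

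**Figure D2:**
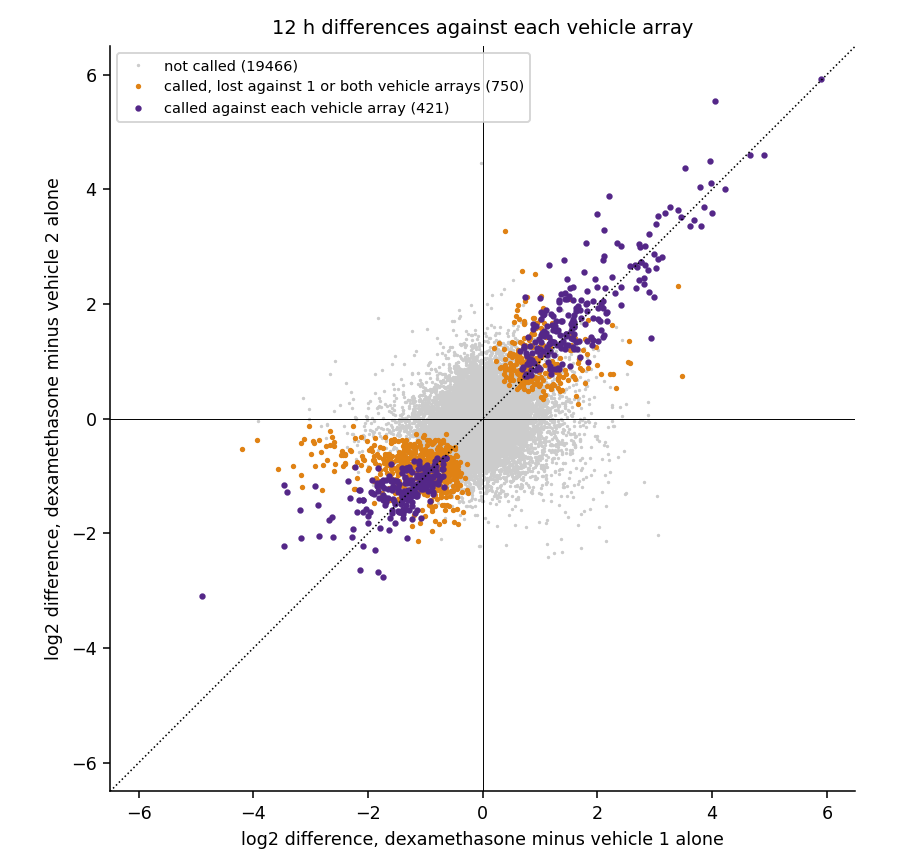
Each point is 1 of 20637 genes, with the log2 difference of the dexamethasone arrays from vehicle replicate 1 alone on the x axis and from vehicle replicate 2 alone on the y axis; the dotted line marks equal values. The genes that hold lie along the dotted line in both directions. Many of the other called genes on the lower side lie left of it, with a larger fall against vehicle replicate 1 than against replicate 2. Of the 716 genes called lower, 712 had both dexamethasone arrays below both vehicle arrays.

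Lcn2, Fam107a, Ipas, Plin4 and Fkbp5 had the largest rises that held. Lcn2, a siderophore-binding lipocalin and a common marker of reactive astrocytes, stood at 13.06 and 12.74 with dexamethasone, against 7.01 and 6.98 with vehicle, a difference of 5.91 (SE 0.31, 60-fold, adjusted p = 8.3e-13). Fam107a, an actin-binding stress-response gene, stood at 13.77 and 13.21 against 9.44 and 7.94 (4.80, SE 0.31, adjusted p = 3.1e-11). Ipas, the listing of a probe for the hypoxia factor gene Hif3a, stood at 10.22 and 10.00 against 5.20 and 5.5. Its vehicle levels were not above background, and it was at least 19.4-fold higher (adjusted p = 2.2e-13). For all 3 genes both dexamethasone arrays lay above both vehicle arrays by more than the spread within either pair. The highest probe listed as Hif3a had levels of 6.28 and 6.13 against 6.02 and 5.87, close to background, and was not called (0.26, adjusted p = 0.66).

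Fkbp5, which encodes an Hsp90 co-chaperone that lowers the receptor's affinity for hormone, stood at 11.63 and 11.36 with dexamethasone, against 7.53 and 7.0 with vehicle (4.23, SE 0.23, 18.7-fold). Plin4 (listed as S3-12), a coat protein of lipid droplets, stood at 11.47 and 11.00 against 6.58 and 6.64 (4.62, SE 0.26). Gjb6, connexin 30 of astrocyte gap junctions, stood at 10.39 and 10.55 against 6.69 and 6.43 (3.91, SE 0.20). None of these 3 had overlapping arrays, and each was called against either vehicle array with an adjusted p of 4.5e-10 or less. Tsc22d3, the glucocorticoid-induced leucine zipper, rose by 3.38 (SE 0.19). Per1, a clock repressor, rose by 1.91 (SE 0.34, adjusted p = 7.1e-04), with levels of 11.75 and 10.58 against 10.01 and 8.49. Dexamethasone replicate 2 exceeded vehicle replicate 1 by little, and the Per1 difference was 2.67 against vehicle replicate 2 alone and 1.16 against replicate 1 alone, both called. Nr3c1, the receptor gene itself, had 5.92 and 7.06 against 6.07 and 7.03 and was not called (-0.06, adjusted p = 0.98).

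Enzymes and carriers made up most of the remaining large rises. Sult1a1, a cytosolic sulfotransferase, stood at 13.60 and 12.92 with dexamethasone, against 9.03 and 9.25 with vehicle (4.12, SE 0.20, 17.4-fold). Slc10a6, a carrier of sulfated steroids, had 9.06 and 8.53 against vehicle levels of 4.80 and 4.68 that were not above background, at least 7.79-fold higher. Bcat1, the cytosolic aminotransferase of branched-chain amino acids, had 11.01 and 11.12 against 7.54 and 6.69 (3.95, SE 0.28). All 3 were called against each vehicle array alone. Prodh, the first enzyme of proline breakdown, rose by 3.79 (SE 0.28) with 11.33 and 11.54 against 7.45 and 7.86. Folh1, a glutamate carboxypeptidase, rose by 3.59 (SE 0.23) with 10.01 and 9.88 against 6.14 and 6.58. S100a7a, a member of the S100 family of calcium-binding proteins, had 9.07 and 9.64 against 5.49 and 5.66, again below background with vehicle, and was at least 11.5-fold higher. Other kept probes of Bcat1 and Slc10a6 were above background with dexamethasone and not with vehicle, so no exact difference is given for them.

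Promoter windows of RefSeq (GRCm38.p6), from 250 bases before to 50 bases after a gene's start, were searched for the palindromic element of steroid receptors, written GNACANNNTGTNC, which reads the same on both strands. Windows existed for 147 of the genes that held as rises and 150 that held as falls. The element was found in 10 of 188 windows of the rises (5.32%), in 0 of 196 windows of the falls and in 57 of 14793 windows of all genes tested (0.385%). The 9 genes with a match among the rises were Car14, Fam107a, Folh1, Map3k6, Map7d2, Serpina3n, Sgk1, Slc10a6 and Txnip, named for the match. Overlapping windows of Fam107a hold the same element, so that site counts more than once in the 10. A further Fam107a window (chr14:8317558-8317857) held no match. Windows of Lcn2, Fkbp5, Plin4 and Gjb6 held none, which says only that these letters are not in those 300 bases. The windows of the 3 largest rises with a match are shown because they place the element beside the response, with its letters in capitals. In Fam107a (chr14:8309730-8310029, minus strand) it begins 118 bases before the start of an annotated transcript, in Slc10a6 (chr5:103629354-103629653, minus strand) 163 bases before and in Folh1 (chr7:86775815-86776114, minus strand) 198 bases before.
Fam107a: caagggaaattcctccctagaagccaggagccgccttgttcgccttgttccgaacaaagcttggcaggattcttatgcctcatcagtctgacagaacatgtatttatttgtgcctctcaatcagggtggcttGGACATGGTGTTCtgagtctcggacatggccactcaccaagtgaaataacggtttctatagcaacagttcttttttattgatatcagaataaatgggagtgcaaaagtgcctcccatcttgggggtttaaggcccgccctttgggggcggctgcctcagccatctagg
Slc10a6: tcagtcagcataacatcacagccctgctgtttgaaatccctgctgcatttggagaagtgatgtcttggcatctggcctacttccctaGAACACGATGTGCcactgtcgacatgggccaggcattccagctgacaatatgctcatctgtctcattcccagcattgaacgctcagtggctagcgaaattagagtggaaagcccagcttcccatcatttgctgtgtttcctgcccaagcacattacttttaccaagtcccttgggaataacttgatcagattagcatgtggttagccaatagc
Folh1: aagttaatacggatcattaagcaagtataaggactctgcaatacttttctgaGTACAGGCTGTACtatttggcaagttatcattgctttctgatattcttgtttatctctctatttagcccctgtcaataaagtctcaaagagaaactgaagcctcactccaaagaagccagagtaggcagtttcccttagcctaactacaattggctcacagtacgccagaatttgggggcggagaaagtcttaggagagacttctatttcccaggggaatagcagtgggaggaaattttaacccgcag

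The largest falls that held were those of Ch25h, Ccl4, B3gat1, Dbp and Trpc7. Ch25h, which makes the oxysterol 25-hydroxycholesterol, was not above background with dexamethasone (5.72 and 5.62), against 10.57 and 8.76 with vehicle, and was at least 14.3-fold lower (adjusted p = 8.4e-08). Ccl4, a chemokine of activated myeloid cells, had 5.87 and 5.83 with dexamethasone, of which 1 array was above background, against 9.32 and 8.08 with vehicle (-2.85, SE 0.32, adjusted p = 9.5e-07). For both genes vehicle replicate 1 was the higher vehicle array, by 1.81 for Ch25h and 1.25 for Ccl4, and the fall against replicate 2 alone was -3.09 and -2.23. Dbp, a clock output factor, showed the opposite order, with 9.95 and 10.13 against 12.19 and 12.68 (-2.40, SE 0.17, adjusted p = 1.6e-10).

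Several cell-surface receptors and channels were among the falls. Ednrb, the endothelin B receptor, stood at 11.55 and 11.54 with dexamethasone, against 13.82 and 13.61 with vehicle (-2.17, SE 0.18, adjusted p = 3e-09). Sstr2, a somatostatin receptor, had 8.85 and 8.85 against 11.48 and 10.57 (-2.18, SE 0.23). Prokr1, a prokineticin receptor, had 6.35 and 5.92 against 7.96 and 8.81 (-2.26, SE 0.30). The arrays of the 2 treatments did not overlap for any of these 3 receptors. Trpc7, a cation channel, was not above background with dexamethasone (5.68 and 5.45), against 8.18 and 7.63, at least 4.22-fold lower. B3gat1, which makes the HNK-1 carbohydrate, had 7.93 and 6.22 against 10.25 and 9.15 (-2.62, SE 0.40), and Mapt, the microtubule protein tau, had 7.21 and 6.25 against 8.82 and 8.96 (-2.16, SE 0.35). For both of these the dexamethasone arrays were the pair further apart.

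Of the 12 largest falls that held, 11 had every kept probe of the gene lower with dexamethasone. Ednrb had another probe at -1.83 and one, above background on 2 of 4 arrays, at -0.27. B3gat1 had another probe at -2.15 and one at 0.10, whose levels of 6.16 and 6.16 against 6.0 and 6.11 lie near the background level of 5.83. The other probe of Sstr2 differed by -0.14 and the lowest of Mapt by -0.13, also at low levels.

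**Figure D3:**
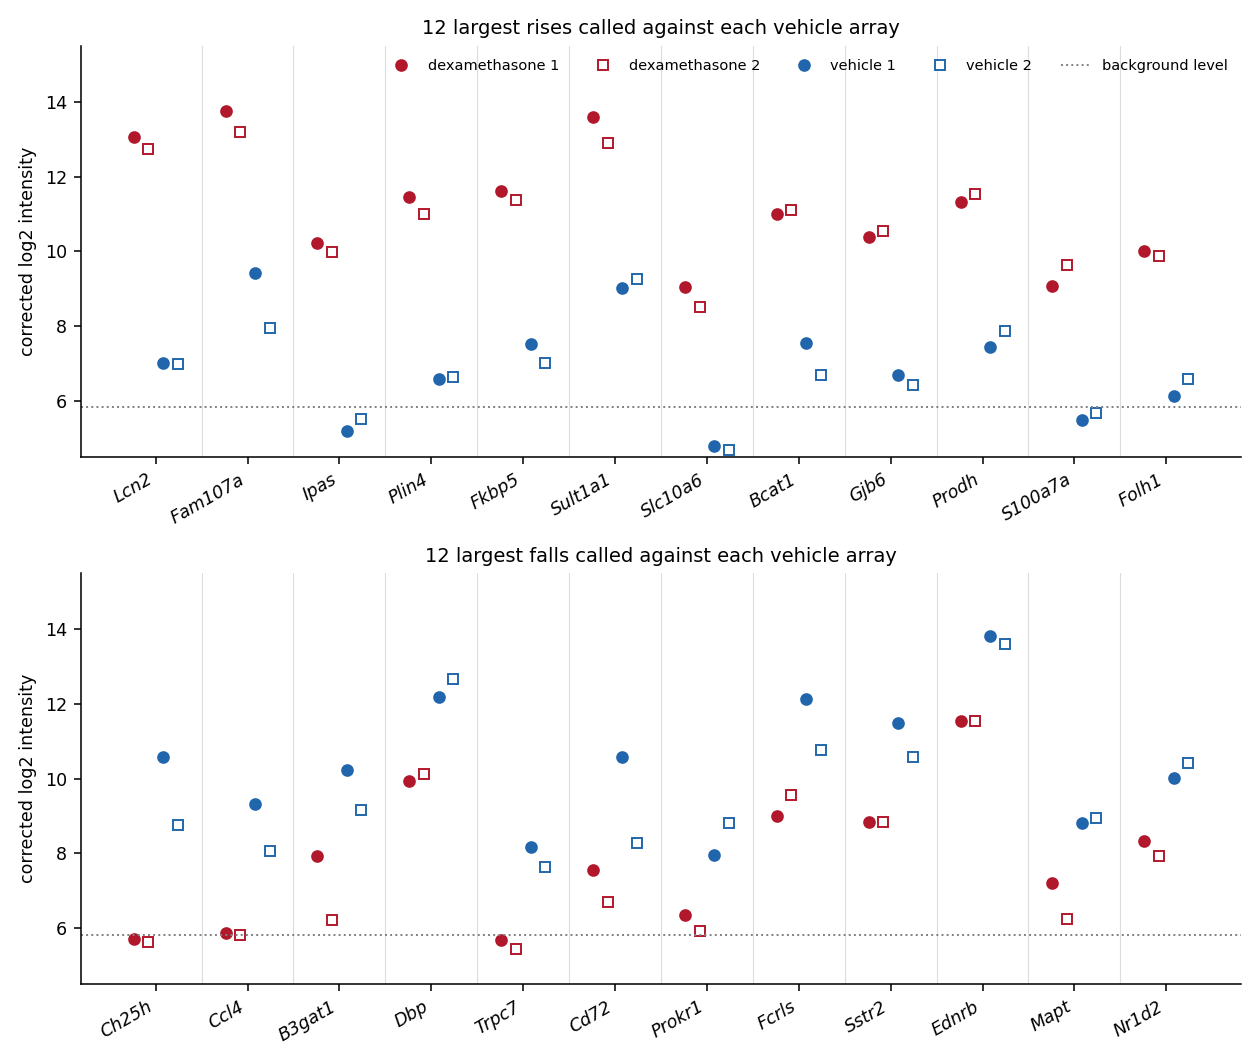
Corrected log2 intensity of the 12 largest rises (top) and the 12 largest falls (bottom) that held, with dexamethasone in red to the left of vehicle in blue, circles for replicate 1, squares for replicate 2 and the background level dotted. No gene has overlapping treatments, and vehicle levels of Ipas, Slc10a6 and S100a7a and dexamethasone levels of Ch25h and Trpc7 lie under the background level.

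Genes were also described in 23 lists by function and cell type, against a median difference of -0.03 over all genes. Of all genes 2.2% were called higher and 3.47% lower with both vehicle arrays, and small counts in a list describe single genes only. Some lists also carry counts at an unadjusted p under 0.05. The share of all genes at that level is not given here, so those counts have no rate to stand against. Glucocorticoid receptor targets rose as a group: 21 of 28 tested were higher, 0 lower, with a median of 1.86. Against each vehicle array alone 19 of 28 were higher, the median was 2.08 against replicate 2 and 1.64 against replicate 1, and 18 held. Beyond those above, Map3k6 (2.75), Klf9 (2.56) and Sgk1 (2.44), a stress kinase, a Krueppel-like factor and a kinase of ion transport, rose and held. Angptl4, the member with the largest difference that did not pass, had 8.08 and 7.75 against 7.07 and 6.77 (1.00, adjusted p = 0.058). The list was chosen with results of these data known, so its direction is no independent evidence.

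Among 21 fatty acid and lipid droplet genes 4 were higher and 0 lower, with a median of 0.34, and 3 held. Besides Plin4 these included the fatty acid activating enzyme Acsl3 (12.99 and 12.68 against 10.84 and 10.55, 2.14) and the triglyceride lipase Pnpla2 (1.49), which was lost without vehicle replicate 2. Of 18 glucose, glycogen and glutamate genes, Pdk4, which restrains pyruvate dehydrogenase, rose by 2.92 (12.48 and 11.91 against 9.37 and 9.18) and Ppp1r3c, a glycogen-targeting phosphatase subunit, fell by 1.0. Of 19 cholesterol genes 0 were called by limma and 0 had an unadjusted p under 0.05.

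Astrocyte genes split in both directions. Of 23 astrocyte markers 6 were higher and 2 lower, of which 4 and 2 held, and the list's median was -0.12 while the mean level per array was higher with dexamethasone (10.87 and 10.69 against 10.61 and 10.32). Glul, glutamine synthetase, rose by 2.07 (11.26 and 10.95 against 9.01 and 9.05). Cbs, which makes cystathionine, rose by 1.69 and the glycolytic Aldoc by 1.17. Gja1, connexin 43, fell by 0.79 (13.66 and 13.70 against 14.39 and 14.55), unlike its partner Gjb6, and Slco1c1, a carrier of thyroxine, fell by 0.98. Of 24 reactive astrocyte genes 5 were higher and 1 lower, and all 6 calls held. The small heat shock protein Hspb1 rose by 3.58 (12.62 and 12.67 against 8.95 and 9.18), the protease inhibitor Serpina3n by 1.27 and Cd109 by 1.39, and the chemokine Cxcl10 fell.

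Growth factor genes gave 2 rises and 1 fall among 26, all holding. These were Igfbp3, which binds insulin-like growth factors (14.43 and 13.90 against 12.69 and 12.87, 1.39), the neurotrophin Ntf3 (7.71 and 7.97 against 6.70 and 6.86, 1.06) and the ligand Wnt5a (9.01 and 8.82 against 10.19 and 10.30, -1.33). In each the arrays of the 2 treatments were further apart than the replicates. Over all genes 2.2% were called higher and 3.47% lower, and 1 fall in 26 is near the latter share. Of 28 extracellular matrix genes 2 were higher, Timp3 (0.87) and Lox (1.15), and neither held. Among 19 genes of amino acid and unfolded protein stress the transcription factor Cebpb was higher (12.52 and 11.90 against 11.52 and 9.64, 1.63) and did not hold. Of 11 genes for the receptor, its chaperones and steroid enzymes 0 were called (median -0.25) and 0 had an unadjusted p under 0.05. Of 14 complement and antigen presentation genes 0 were called with both vehicle arrays, 2 had an unadjusted p under 0.05 and 4 were lower against replicate 1 alone.

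Genes of DNA replication were lower at 12 h and genes of mitosis were not called. Of 29 replication genes 13 were lower and 0 higher, with a median of -0.67. Against vehicle replicate 2 alone 9 were lower (median -0.80), against replicate 1 alone 9 (median -0.86), and 6 held. The 6 were the helicase subunits Mcm2 (9.02 and 8.69 against 10.09 and 10.10, -1.24) and Mcm5 (10.16 and 10.29 against 11.53 and 11.46, -1.27), the loading factors Cdc6 (7.6 and 6.89 against 8.61 and 8.85, -1.48) and Cdt1 (8.89 and 9.33 against 10.50 and 10.77, -1.53), the histone chaperone subunit Chaf1b (-1.55) and the uracil glycosylase Ung (-1.36). In none of the 4 genes given by array did the treatments overlap. Of 26 mitosis genes 0 were called by limma and 5 had an unadjusted p under 0.05, with a median of 0.05. The largest difference was that of Ect2 (7.05 and 8.66 against 6.74 and 7.42, 0.78, adjusted p = 0.72). Cdk1 (11.83 and 11.62 against 11.53 and 11.84) and Top2a (10.87 and 11.00 against 10.91 and 10.96) had overlapping arrays.

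At the neighbouring times, each against its own vehicle arrays, 0 of the 29 replication genes were lower at 6 h (median -0.18) and 25 at 18 h (median -1.49). For the 26 mitosis genes the counts were 0 at 6 h (median 0.01) and 13 at 18 h (median -1.0). Over all genes 1.4% were called higher and 0.683% lower at 6 h, and 1.66% higher and 1.96% lower at 18 h. The 12 h response was tested gene by gene only against the mean of the 6 h and 18 h responses, and none of these genes passed. A steady change from 6 h to 18 h leaves that difference small, so the test cannot show it. The 12 h response was not tested against that of 6 h or of 18 h alone. E2F-type letters (TTTCCCGC or TTTGGCGC, either strand) were found in 7 of 27 promoter windows of the replication list (25.9%). These were windows of Cdc6, Cdt1, Mcm3, Mcm5, Mcm6, Mcm7 and Rfc3. The share was 2.42% for windows of all genes tested and 4.08% (8 of 196) for those of all falls that held.

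Clock genes moved in both directions. Of 15 tested 2 were higher and 4 lower. Dbp, Per1 and Nr1d2 (a Rev-erb repressor, 8.33 and 7.94 against 10.02 and 10.43, -2.09) held. Arntl (0.99), Nr1d1 (-1.07) and Ciart (6.73 and 6.55 against 8.21 and 7.75, -1.34) were called with both vehicle arrays and did not hold. Time of exposure and time of day cannot be told apart here, though both treatments were taken at the same nominal time.

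Of the 19 cytokine and chemokine genes of the list 5 were lower and 0 higher, with a median of -0.43, but 8 of the 19 lay above background on all 4 arrays. Ccl4, Cxcl10 (6.00 and 5.62 against 8.13 and 7.20, -1.85) and Cxcl16 (-1.54) held. Ccl3 (5.91 and 5.64 against 8.38 and 6.24) and Cxcl2 (4.57 and 4.19 against 7.12 and 4.85) did not, and their differences against vehicle replicate 2 alone were -0.47 and -0.48. Of these, Cxcl10 and Ccl3 were above background on 1 of 2 dexamethasone arrays and Cxcl2 on vehicle replicate 1 alone. Tnf had 4.69 and 5.27 against 7.05 and 5.29 and did not pass (adjusted p = 0.058). Of 18 interferon-stimulated genes (median -0.18) Oasl2 fell (8.0 and 7.5 against 8.87 and 8.87, -1.12) and held. Ccl3, Ccl4 and Tnf are made chiefly by microglia, whose markers differ between the vehicle arrays as given above, and the part of that difference in these falls was not tested.

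Most lower calls among markers of other cell types were lost without vehicle replicate 1. Of 21 microglia markers 5 were lower with both vehicle arrays (median -1.0), 18 against replicate 1 alone (median -2.25) and 0 against replicate 2 alone (median -0.06). Fcer1g, a signalling subunit of Fc receptors, had 9.03 and 8.51 against 11.88 and 9.13, and Aif1 had 6.83 and 7.0 against 9.57 and 7.38. For both, vehicle replicate 2 was nearer the dexamethasone arrays than vehicle replicate 1. Fcrls and Cd72, a microglial gene of the Fc receptor-like family and a lectin of B cells and microglia, were exceptions among genes known from such cells. Fcrls stood at 8.99 and 9.56 against 12.14 and 10.78 and held, with -1.50 against replicate 2 alone, and Cd72 at 7.55 and 6.71 against 10.59 and 8.29, with -1.16 (adjusted p = 0.032). Another probe of Fcrls, listed as Msr2, was lost without vehicle replicate 1 (-0.83, adjusted p = 0.20).

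The largest falls lost without vehicle replicate 1 were those of Sox10 (6.10 and 5.51 against 10.01 and 6.32), the fatty acid receptor Gpr84 (6.10 and 6.16 against 9.70 and 7.02), the fungal receptor Clec7a, the immediate early factor Egr3 (6.10 and 6.03 against 10.00 and 6.44), Cmtm5 and Msr2. Lower probes of Egr3 (-0.10) and Clec7a (0.20) did not show the fall. Clec7a was not above background with dexamethasone (5.48 and 5.34, against 8.56 and 6.59) and was at least 3.36-fold lower with both vehicle arrays. The differences of the other 5 genes ran from -2.36 to -2.07 with both vehicle arrays and from -0.98 to -0.38 against replicate 2 alone. Of the 357 falls lost without vehicle replicate 1, 154 (43.1%) were called against the vehicle arrays of 6 h and 18 h. For oligodendrocyte lineage markers 1 of 15 was lower and 1 higher with both vehicle arrays, 0 lower against replicate 2 alone and 7 lower against replicate 1 alone. For 17 immediate early genes the lower calls were 4, 1 and 9 in the same order, with medians of -0.36, 0.01 and -1.19, and Jun, an AP-1 subunit (8.98 and 9.11 against 10.98 and 10.11, -1.50), was the 1 that held.

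Rises lost without vehicle replicate 1 were led by the chemokine gene Ccl21a (9.10 and 7.85 against 5.07 and 6.16), the beta-defensin Defb1 (11.48 and 11.09 against 7.81 and 10.53), the focal adhesion protein Tns1, the apoptosis gene Pmaip1, the interleukin receptor subunit Il6ra and the retinaldehyde dehydrogenase Aldh1a1. Mouse Ccl21 genes are nearly identical copies, so the Ccl21a value is uncertain. Tns1 (8.98 and 10.7 against 7.3 and 8.49) and Il6ra (8.23 and 9.77 against 6.43 and 8.03) were higher in replicate 2 in both treatments. Pmaip1 (7.06 and 8.19 against 5.80 and 5.90) was lost in both fits while its difference hardly moved, at 1.78 with both vehicle arrays, 1.73 against replicate 2 alone and 1.83 against replicate 1 alone. Defb1 was near the dexamethasone level on vehicle replicate 2 and differed from it by 0.75. Without vehicle replicate 2 the rises of Cldn11, a claudin of myelin (11.30 and 10.76 against 10.63 and 7.76), Vegfd (listed as Figf) and, as given, Pmaip1 and the falls of Rec8, Rfc3 and Sema5a were lost, with Cldn11 at 0.40 against replicate 1 alone.

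Ependymal genes, which belong to the ciliated lining of the ventricles, were lower across the list. All 6 tested were lower with both vehicle arrays and against replicate 1 alone, with medians of -1.02 and -1.32. Against replicate 2 alone 2 were lower (median -0.66), and those 2 held. They were Ccno, a regulator of cilium formation (8.72 and 7.38 against 10.24 and 9.68, -1.91), and Mlf1 (10.39 and 9.62 against 11.32 and 11.09, -1.20). At 6 h 0 of 6 were lower and at 18 h 2 of 6. The fibroblast list gave 1 call in 8, the matrix proteoglycan Ogn (14.36 and 14.21 against 12.76 and 13.36, 1.22), which held, and the neuron and endothelial lists gave 0 calls in 9 and 0 in 8, also at an unadjusted p under 0.05.

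**Figure D4:**
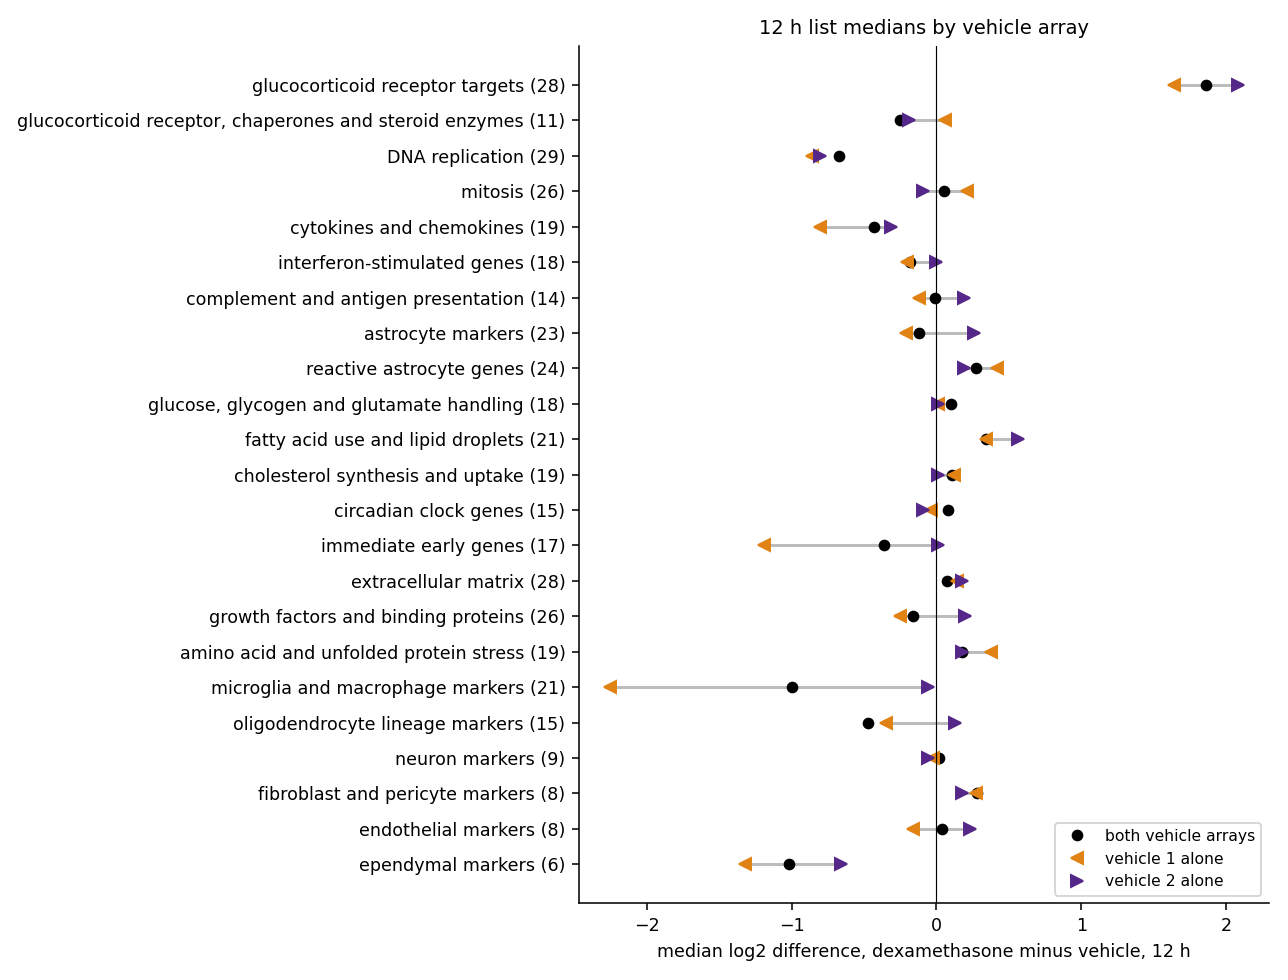
Median log2 difference at 12 h of each of 23 gene lists (number tested in parentheses) with both vehicle arrays (black), with vehicle replicate 1 alone (orange, pointing left) and with vehicle replicate 2 alone (purple, pointing right). Receptor targets lie at 1.64 to 2.08 throughout, while the median of microglia markers is -2.25 against replicate 1 and -0.06 against replicate 2.

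Calls that held recurred more often at 6 h and 18 h than the others. Each time has its own arrays, but the estimate of a gene's spread is shared by all times. A small spread makes a call easier at every time, and holding genes were bound to differ more, as given above. The recurrence rates are therefore a description and no separate support for holding. Of the 215 holding rises 147 (68.4%) were also called higher at 6 h and 174 (80.9%) at 18 h, against 59 (24.6%) and 78 (32.5%) of the 240 rises that did not hold. Of the 206 holding falls 37 (18.0%) were also lower at 6 h and 113 (54.9%) at 18 h, against 23 (4.5%) and 105 (20.6%) of the other 510. None was called in the opposite direction at either time.

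The 12 h response differed from the mean of the 6 h and 18 h responses for 2 genes (0.00969% of genes, 969 at an unadjusted p under 0.05). S100a7a differed by 1.41 (SE 0.23, adjusted p = 0.015) and Ednrb by -1.37 (SE 0.22, adjusted p = 0.015). S100a7a stood at 8.44 and 8.33 with dexamethasone, against 6.29 and 6.14 with vehicle, at 6 h, and at 7.89 and 8.03 against 5.45 and 5.35 at 18 h, so both 12 h dexamethasone arrays were above the other 4. Its vehicle levels at 12 h and 18 h were not above background, so the size of its difference there depends on the background correction. Ednrb stood at 12.50 and 12.51 against 12.65 and 13.01 at 6 h and at 12.80 and 12.57 against 13.99 and 13.93 at 18 h, and both 12 h dexamethasone arrays were below the other 4. Both calls were lost without vehicle replicate 1 (adjusted p = 0.077 for both), without dexamethasone replicate 2 (0.27 for both) and with array weights.

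Set against its own neighbours, the 12 h dexamethasone group differed for 6 genes (0.0291%, 1165 at an unadjusted p under 0.05) and the 12 h vehicle group for 3 (0.0145%, 1430 at an unadjusted p under 0.05). The 6 included Cdo1 (0.99), Klk1b21 (1.08) and S100a7a (1.18) above, and Ednrb (-1.05) and Lrp8 (-0.91) below. Cdo1 makes cysteine sulfinate, Klk1b21 is a kallikrein and Lrp8 is a reelin receptor. The 3 vehicle genes, Tex30, Chac1 and the predicted locus LOC100045737, were lower at 12 h, with differences of -1.08 to -0.83. Apart from Ednrb and S100a7a, these genes were named after their values were seen. Kallikrein genes of the Klk1b family are close copies, so the Klk1b21 value is uncertain. As the 12 h vehicle arrays differed from each other, a small count for their mean does not place either array near its neighbours.

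**Figure D5:**
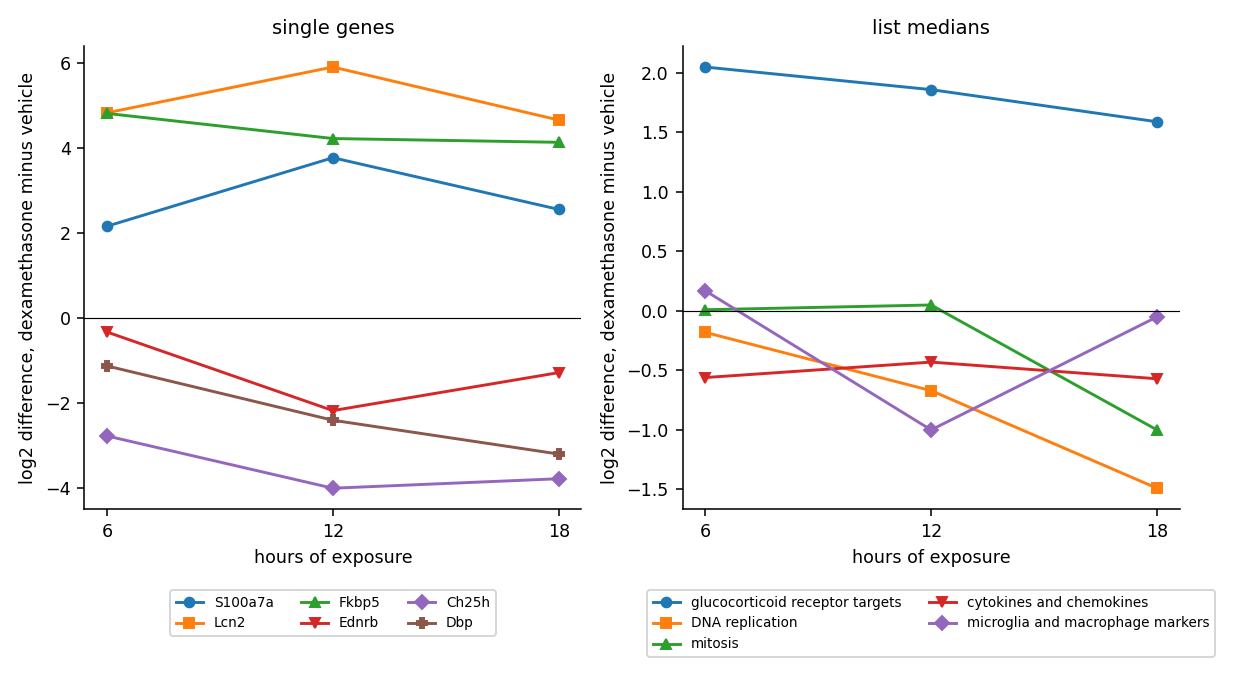
Log2 difference, dexamethasone minus vehicle, at 6, 12 and 18 h for 6 single genes (left) and for the medians of 5 gene lists (right). S100a7a peaks at 3.78 and Ednrb reaches -2.17 at 12 h, and the median of replication genes lies at -0.18, -0.67 and -1.49 in order of time.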

How the data were processed

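Total RNA was labelled as biotinylated cRNA and hybridized to Illumina BeadChips, and GenomeStudio was used per the submitters' processing notes. The deposited table used here holds 1 intensity per probe and array for 45281 probes, from 44.8 to 49460.6. All arrays hold nearly the same sorted values (medians of 93.7 to 94), as quantile normalization by the authors would leave them. A second deposited table has 72 value columns whose names match no sample label. They were not used, and only its pairing of probes and symbols was read. Whether the authors subtracted background and the genome build behind the array's annotation are not given in the sources used here.

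The log2 scale follows a normexp background correction (offset 16). A background level of 91.7 (5.83 on the log2 scale) is the 99th percentile of the spread below the mode of all intensities (70.2), mirrored. The 29540 probes that exceeded it on 2 or more arrays entered, and the probe with the highest mean stood for a symbol, which gave 20637 genes. A fold is written "at least" where a group was not above that level. All 36 arrays were fitted in limma 3.58.1 (R 4.3.3) with 16 group means, moderated variances (20 residual, 5.23 prior degrees of freedom) and p-values adjusted per comparison by Benjamini-Hochberg. A lone array was assumed to vary like the other groups. The procedure was tested on simulated data. The alternatives cover background, filters, variance model, array weights, replicate block, marker covariates, vehicle arrays and left-out arrays. The number of arrays limits the precision.

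The comparison, the 23 gene lists and the naming rule were chosen with earlier results of these data known. The rule names the 12 largest rises and falls that held, the 6 and 3 largest lost without each vehicle array, up to 4 called members and the largest uncalled member of each list, Nr3c1, Fkbp5, Tsc22d3 and Per1, genes differing from the neighbouring times, and the 5 genes each way furthest apart between the vehicle arrays. Other genes are further list members or genes with a promoter match, named after their values were seen. Some genes that the rule names are not reported here.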

Additional observations from a re-analysis of the deposited data

Results flagged for a closer look

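S100a7a and Ednrb had a 12 h response that differed from the mean of the 6 h and 18 h responses by a test of the difference itself, by 1.41 and -1.37. Of the alternatives tried, array weights and leaving out vehicle replicate 1 or dexamethasone replicate 2 ended both calls, while the value stayed between 1.13 and 1.70 for S100a7a and between -1.47 and -1.27 for Ednrb. The cause was not tested.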

How the results depend on the processing

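The number of genes called at 12 h (1171) rests on how the spread is estimated. It was 23 in the fit of the 4 arrays of 12 h (23 higher, 0 lower), 293 with array weights (169 higher, 124 lower), 2441 with the mean microglia and oligodendrocyte marker levels as covariates (881 higher, 1560 lower) and 596 (without dexamethasone replicate 2) to 1409 with 1 array left out (lower genes 263 to 908). The number that held (421) was 263 with array weights, of which 108 lower. Deviations of same-numbered arrays from their group means correlated across genes at 0.51 at 12 h (1 value for 2 pairs), at 0.35 to 0.86 at 0.25, 1, 2 and 4 h, and at -0.13 to 0.03 at 6, 18 and 24 h. The labels state no pairing. With the replicate number as a block 3835 genes were called (1537 higher, 2298 lower) and 1094 held (449 higher, 645 lower). Genes whose 12 h response differed from the neighbouring times (2) numbered 4 on the log2 deposited values, 0 with array weights, 349 with the block and 0 (without dexamethasone replicate 2) to 227 (without vehicle replicate 2) with 1 array left out. For the dexamethasone arrays alone (6) the numbers were 18 on the log2 deposited values, 1 with array weights and 2 to 20 with 1 array left out, and for the vehicle arrays alone (3) they were 9, 0 and 81 (without vehicle replicate 1) to 357 (without replicate 2). Of 78 named calls, 47 were kept with array weights, 13 in the fit of the 12 h arrays, 53 without vehicle replicate 1, 68 without vehicle replicate 2, and 67 against the vehicle of 6 h and 18 h.

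Genes not called between treatments that changed sign were C1qb (0.37 with covariates, -2.34 to 0.28 with 1 array left out), Ect2 (-0.23 against the vehicle of 6 h and 18 h, -0.03 to 1.58), Nr3c1 (-0.63 to 0.51), Pdgfra (-3.04 to 0.17) and Thbs1 (-0.04 to 3.21). The cause of these changes was not tested. With 2 arrays a group, and probes near background in 1 group, sizes of difference are least certain for S100a7a, Ipas, Slc10a6, Ch25h and Trpc7.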
